A study of Ovis aries with 32 samples.

Results

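Immediate early genes were followed across tissues and diets in RNA sequencing of Tan sheep, a fat-tailed breed. The 10 genes were FOS, FOSB, JUN, JUNB, EGR1, EGR3, NR4A1, ARC, IER2 and NPAS4, chosen by name, and each had 1 row among the 30722 genes of the expression table. The SA group was 12 male sheep aged 3 months at the start, fed a basal pellet to which succinic acid, a mitochondrial metabolite, had been added at 1% of dry matter. The CON group was 12 sheep of the same sex and age fed the same pellet without succinic acid. Feeding lasted 60 days after 10 days of adaptation, and 4 sheep of each diet gave the libraries, 32 in 8 groups of 4, labelled as hypothalamus, pituitary, liver or tail fat. The labels do not state whether library 1 of each tissue came from the same sheep, nor at what hour the tissues were taken.

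Immediate early genes are switched on within minutes of a stimulus, without new protein synthesis, by kinases that act on the transcription factors SRF, CREB and the ETS factors beside SRF. Most of the proteins are themselves transcription factors: FOS and JUN proteins pair as AP-1, EGR proteins bind GC-rich sites, and NR4A1 is an orphan nuclear receptor. In neurons they are used as markers of recent firing, and ARC protein acts at the synapse itself. In liver and fat they respond to hormones, growth factors, feeding, stress and handling of tissue. Their messenger RNAs are short-lived, so a level reflects the minutes to hours before sampling.

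All levels are TPM, a share of the transcripts of a library that is corrected for transcript length. TPM keeps no record of sequencing depth, which is therefore unknown, and counting error cannot be bounded. Tests used limma on log2(TPM + 1), with p-values adjusted over all genes tested by the Benjamini-Hochberg method, a threshold of 0.05, and a filter of at least 1 TPM in at least 4 libraries of the fit. Changes are SA minus CON and are given on the log2(TPM + 1) scale, which understates the change of low genes.

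The libraries match their labels only in part. The neuronal marker SNAP25 stood between 372 and 1404 TPM in every SA and CON library labelled hypothalamus or pituitary and stayed under 1 TPM in liver and tail fat. In tissue labelled pituitary, PRL, the prolactin gene, reached at most 1.79 TPM in SA libraries and 0.17 TPM in CON libraries, and the glycoprotein hormone subunit CGA was listed at 0 in all 8. There the 9 listed genes of the anterior pituitary summed to 2.97 to 5.93 TPM in SA libraries and 3.09 to 4.89 TPM in CON libraries, with 2 of 9 at 0 in each group, while the astrocyte gene GFAP averaged 5347 TPM (SA) and 4813 TPM (CON). In tissue labelled hypothalamus, PPP1R1B, high in striatal neurons though also present in tail fat here, averaged 1529 TPM (SA) and 1496 TPM (CON), against 0.47 TPM (SA) and 0.35 TPM (CON) of AVP, the vasopressin gene. The 10 genes of hypothalamic hormones and peptides with a row summed there to 41.9 to 55.4 TPM (SA) and 35.5 to 54.7 TPM (CON). Among them, NPY averaged 38.0 TPM (SA) and 33.8 TPM (CON). The 7 genes of striatal neurons summed there to 2751 to 4800 TPM (SA) and 2719 to 4597 TPM (CON). Both tissues are therefore called here by their labels only. Mitochondrially encoded genes held 52.5% to 71.0% of liver TPM under SA and 20.2% to 27.9% under CON. In bulk tissue, fewer cells of a type and less RNA per cell cannot be told apart.

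By group mean in CON sheep, EGR1, EGR3 and ARC were highest in tissue labelled hypothalamus, whereas FOS, JUN and IER2 were highest in tail fat, and FOSB, EGR3 and ARC were close to or at 0 in liver. FOS, JUN, JUNB, EGR1 and IER2 stood at 1 TPM or more in all 32 libraries. NPAS4, a transcription factor induced almost only by neuronal activity, never reached 1 TPM and was listed at 0 in 16 of 32 libraries. It passed the filter in no comparison.

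**Figure D1:**
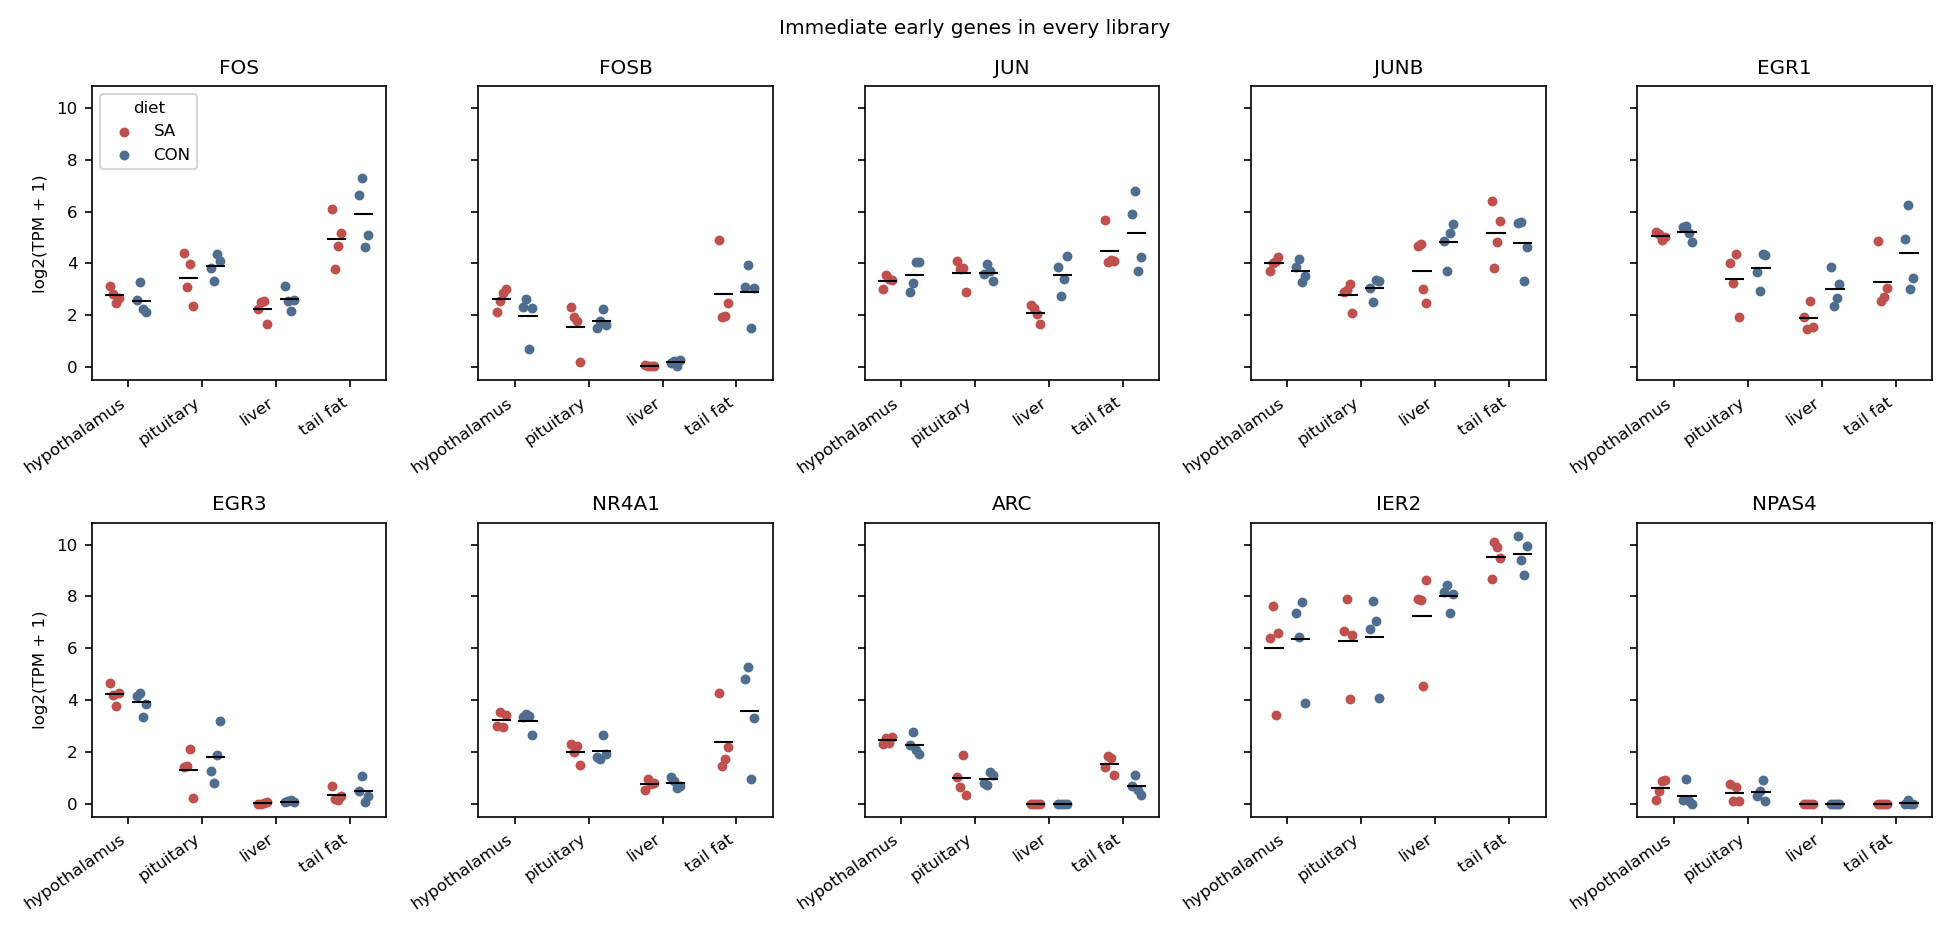
Level of each of the 10 genes, as log2(TPM + 1), in the 32 libraries: points are libraries, SA to the left of CON within each tissue, and bars are means of 4. EGR3 and ARC stand highest in tissue labelled hypothalamus, FOS and IER2 in tail fat, and NPAS4 lies near 0 throughout.

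FOS, the AP-1 partner most often used as an activity marker, averaged 35.1 ± 23.6 TPM under SA and 78.0 ± 61.4 TPM under CON in tail fat (SD, n = 4 each). In tissue labelled pituitary it averaged 11.6 ± 7.21 TPM (SA) and 14.4 ± 4.52 TPM (CON). Tissue labelled hypothalamus held 5.96 ± 1.40 TPM (SA) and 5.23 ± 2.42 TPM (CON), and liver 3.85 ± 1.22 TPM (SA) and 5.29 ± 1.74 TPM (CON). In CON sheep the tail fat and pituitary ranges did not overlap, nor did those of pituitary and liver, whereas liver and hypothalamus overlapped.

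FOSB, a FOS paralogue with a long-lived splice product in brain, averaged 9.82 ± 12.8 TPM (SA) and 7.78 ± 5.11 TPM (CON) in tail fat. It averaged 5.34 ± 1.62 TPM (SA) and 3.42 ± 1.98 TPM (CON) in hypothalamus, and 2.35 ± 1.60 TPM (SA) and 2.53 ± 0.80 TPM (CON) in pituitary. In liver it lay between 0.02 and 0.07 TPM under SA and between 0.04 and 0.21 TPM under CON. Only the step to liver separated neighbouring ranges.

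JUN, the core partner of FOS in AP-1, was flatter across tissues. It averaged 24.4 ± 16.8 TPM (SA) and 49.7 ± 45.1 TPM (CON) in tail fat, and between 9.12 and 12.1 TPM in hypothalamus and pituitary under either diet. Liver was the place where its diets parted, as described with the liver results. JUNB, a JUN paralogue that often weakens JUN at shared sites, averaged 43.9 ± 31.3 TPM (SA) and 31.4 ± 18.3 TPM (CON) in tail fat. In liver JUNB averaged 15.5 ± 11.3 TPM (SA) and 30.2 ± 13.9 TPM (CON), in hypothalamus 15.3 ± 2.43 TPM (SA) and 12.4 ± 3.57 TPM (CON), and in pituitary 6.15 ± 2.11 TPM (SA) and 7.60 ± 2.10 TPM (CON).

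EGR1, a zinc-finger factor of growth factor and synaptic responses, averaged 32.7 ± 3.42 TPM (SA) and 36.4 ± 6.80 TPM (CON) in hypothalamus. It was lower in pituitary, at 11.5 ± 7.32 TPM (SA) and 14.3 ± 6.35 TPM (CON), and in liver, at 2.84 ± 1.40 TPM (SA) and 7.79 ± 4.17 TPM (CON). In tail fat it averaged 11.4 ± 11.1 TPM (SA) and 30.3 ± 31.1 TPM (CON). EGR3, a relative of EGR1 that acts downstream of calcium signals, averaged 18.2 ± 4.82 TPM (SA) and 14.5 ± 4.03 TPM (CON) in hypothalamus and 1.70 ± 1.28 TPM (SA) and 3.23 ± 3.36 TPM (CON) in pituitary. It stayed under 1.1 TPM in every tail fat library and under 0.1 TPM in every liver library, so EGR3 separated hypothalamus from each of the other tissues without overlap.

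NR4A1 averaged 8.58 ± 2.00 TPM (SA) and 8.41 ± 2.17 TPM (CON) in hypothalamus and 3.09 ± 0.97 TPM (SA) and 3.18 ± 1.38 TPM (CON) in pituitary. In tail fat it spanned 0.92 to 37.4 TPM over the 8 libraries, the widest linear range of NR4A1 in any tissue. In liver it spanned 0.45 to 1.02 TPM. ARC, a synaptic effector and not a transcription factor, averaged 4.43 ± 0.53 TPM (SA) and 3.89 ± 1.29 TPM (CON) in hypothalamus and 1.15 ± 1.09 TPM (SA) and 0.97 ± 0.34 TPM (CON) in pituitary. In tail fat ARC averaged 1.95 ± 0.67 TPM (SA) and 0.62 ± 0.38 TPM (CON), and it was listed at 0 in all 8 liver libraries.

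IER2, a nuclear protein of the first wave of growth factor responses, was the highest of the 10 by level. It averaged 792 ± 301 TPM (SA) and 850 ± 367 TPM (CON) in tail fat and 220.3 ± 151 TPM (SA) and 266 ± 74.9 TPM (CON) in liver. In hypothalamus it averaged 96.1 ± 76.9 TPM (SA) and 120 ± 88.5 TPM (CON), and in pituitary 112 ± 93.96 TPM (SA) and 119 ± 85.8 TPM (CON). In RefSeq genes of the assembly ARS-UI_Ramb_v3.0, IER2 overlaps the uncharacterised gene LOC101103232, the only such overlap among the 10. Whether the authors' counting used strand is not given in the sources used here, so reads of the 2 genes cannot be told apart and all values of IER2 are uncertain.

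The tissues were compared in the 16 CON libraries in 1 fit of 15929 genes. These 6 contrasts share libraries, so they are not independent of one another. The 16 libraries came from 4 sheep, and the fit had no term for sheep. Between the labelled brain tissues, EGR3 was higher in hypothalamus than in pituitary by 2.13 (SE 0.38, limma adjusted p = 0.00057) and ARC by 1.29 (SE 0.20, limma adjusted p = 0.000153). These were the 2 of 9 tested genes called, where 4.48% of all genes were called higher. ARC reached 1 TPM in all 4 hypothalamus libraries, but elsewhere only in pituitary CON 3 and CON 4 and tail fat CON 2. It thus passed the filter only through the group where it was high. Its higher calls in hypothalamus, here and in the contrasts below, are not independent of that. EGR1 was 1.38 higher (SE 0.55) and FOS 1.33 lower, at a change of -1.33 (SE 0.47), but neither passed, with limma adjusted p of 0.129 and 0.0741.

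Against liver, hypothalamus was higher for FOSB, EGR1, EGR3, NR4A1 and ARC, 5 of the 9 tested, where 51.5% of all genes were called higher. The differences ran from 1.80 (FOSB) to 3.83 (EGR3). JUNB was lower in hypothalamus than in liver by -1.11 (SE 0.46, limma adjusted p = 0.0388), where 16.7% of all genes were called lower. In the 16 SA libraries that JUNB difference had the other sign, at 0.29. It was -0.54 (limma adjusted p = 0.196) without mitochondrial and ribosomal RNA genes. The JUNB call was also lost without CON 1, 3 or 4 of hypothalamus or of liver, with limma adjusted p between 0.0545 and 0.123.

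Against tail fat, hypothalamus was higher for EGR3 (3.43) and ARC (1.59), 2 of the 9, where 53.2% of all genes were called higher. It was lower for FOS (-3.36), IER2 (-3.26), JUN (-1.61) and JUNB (-1.06), 4 of the 9, where 14.3% of all genes were called lower. Of these, the FOS difference had limma adjusted p = 6.03e-06 and that of JUNB 0.0480. The JUNB call was lost without hypothalamus CON 1, 3 or 4, or without tail fat CON 1, 2 or 4, with limma adjusted p between 0.0657 and 0.153, and in the SA libraries (limma adjusted p = 0.0523).

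Pituitary was higher than liver for FOS, FOSB, EGR3 and ARC, 4 of the 9, where 58.3% of all genes were called higher, by 0.96 (ARC) to 1.70 (EGR3). JUNB was lower in pituitary than in liver, at -1.76 (SE 0.46, limma adjusted p = 0.00231), where 14.8% of all genes were called lower. In the SA libraries that JUNB difference was -0.94 (limma adjusted p = 0.106) and the call was lost. With quantile normalization none of the 4 higher calls was kept, and FOS stood at 0.19. The FOS call was also lost without pituitary CON 3 (limma adjusted p = 0.0586) or liver CON 3 (limma adjusted p = 0.0580).

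Pituitary was lower than tail fat for FOS (-2.03), FOSB (-1.11), JUN (-1.52), JUNB (-1.71), NR4A1 (-1.57) and IER2 (-3.21), 6 of the 9, where 11.9% of all genes were called lower. EGR3 alone was called higher there, by 1.30 (SE 0.38, limma adjusted p = 0.00518), where 59.4% of all genes were called higher. With quantile normalization that EGR3 difference was 0.23 (limma adjusted p = 0.575) and the call was lost. In the SA libraries NR4A1 differed by -0.40 (limma adjusted p = 0.420), so its call was lost there. Without tail fat CON 1, and likewise without tail fat CON 2, the 7 calls became 4, because FOSB, JUN and NR4A1 no longer passed. FOSB was also lost without pituitary CON 1 or 4 or tail fat CON 4, and NR4A1 without pituitary CON 1, 2 or 4, with limma adjusted p between 0.0579 and 0.0748.

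Liver was lower than tail fat for FOS (-3.31), FOSB (-2.72), JUN (-1.60), NR4A1 (-2.79) and ARC (-0.67), 5 of the 9, where 20.8% of all genes were called lower. FOS had limma adjusted p = 1.42e-05 there. The ARC call was lost with array weights (limma adjusted p = 0.0536). JUN lost its call without liver CON 2, tail fat CON 1 or tail fat CON 2, with limma adjusted p of 0.0755, 0.0713 and 0.0647. JUNB differed by 0.05 (SE 0.46), and whether it differed from the other genes in this contrast was not tested.

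Within each family, the share of summed TPM held by each paralogue is free of the scaling of a library. JUND, a JUN paralogue outside the 10 genes, held most of the JUN family in brain, at 57.4% ± 1.18 (SA) and 58.1% ± 4.04 (CON) in hypothalamus and 64.9% ± 3.53 (SA) and 64.1% ± 1.28 (CON) in pituitary (SD, n = 4). JUNB held 36.4% ± 18.0 (SA) and 48.0% ± 7.85 (CON) in liver. In the EGR family, EGR1 held 94.7% ± 0.24 (SA) and 97.8% ± 1.46 (CON) in tail fat but 52.8% ± 3.85 (SA) and 59.4% ± 7.35 (CON) in hypothalamus, where EGR3 held 29.0% ± 4.28 (SA) and 23.2% ± 3.56 (CON) and EGR4 15.0% ± 3.56 (SA) and 13.97% ± 2.83 (CON). EGR4 was at or under 0.06 TPM in liver and tail fat.

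In liver the make-up of the FOS family differed between the diets. FOS held 65.0% to 83.5% of it in SA livers and 19.4% to 50.4% in CON livers, so the ranges did not overlap. FOSL2, a FOS relative, held nearly all of the rest and averaged 1.29 ± 0.43 TPM in SA livers and 12.1 ± 13.1 TPM in CON livers. CON 1 stood at 31.8 TPM of FOSL2, and without it, a choice made after seeing the data, the other 3 CON livers averaged 5.59 ± 0.71 TPM. The summed family spanned 3.34 to 6.59 TPM in SA livers and 9.35 to 39.5 TPM in CON livers. These shares were singled out once their values were known and carry no test. How often the make-up of other gene families parts the diets in liver was not determined.

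**Figure D2:**
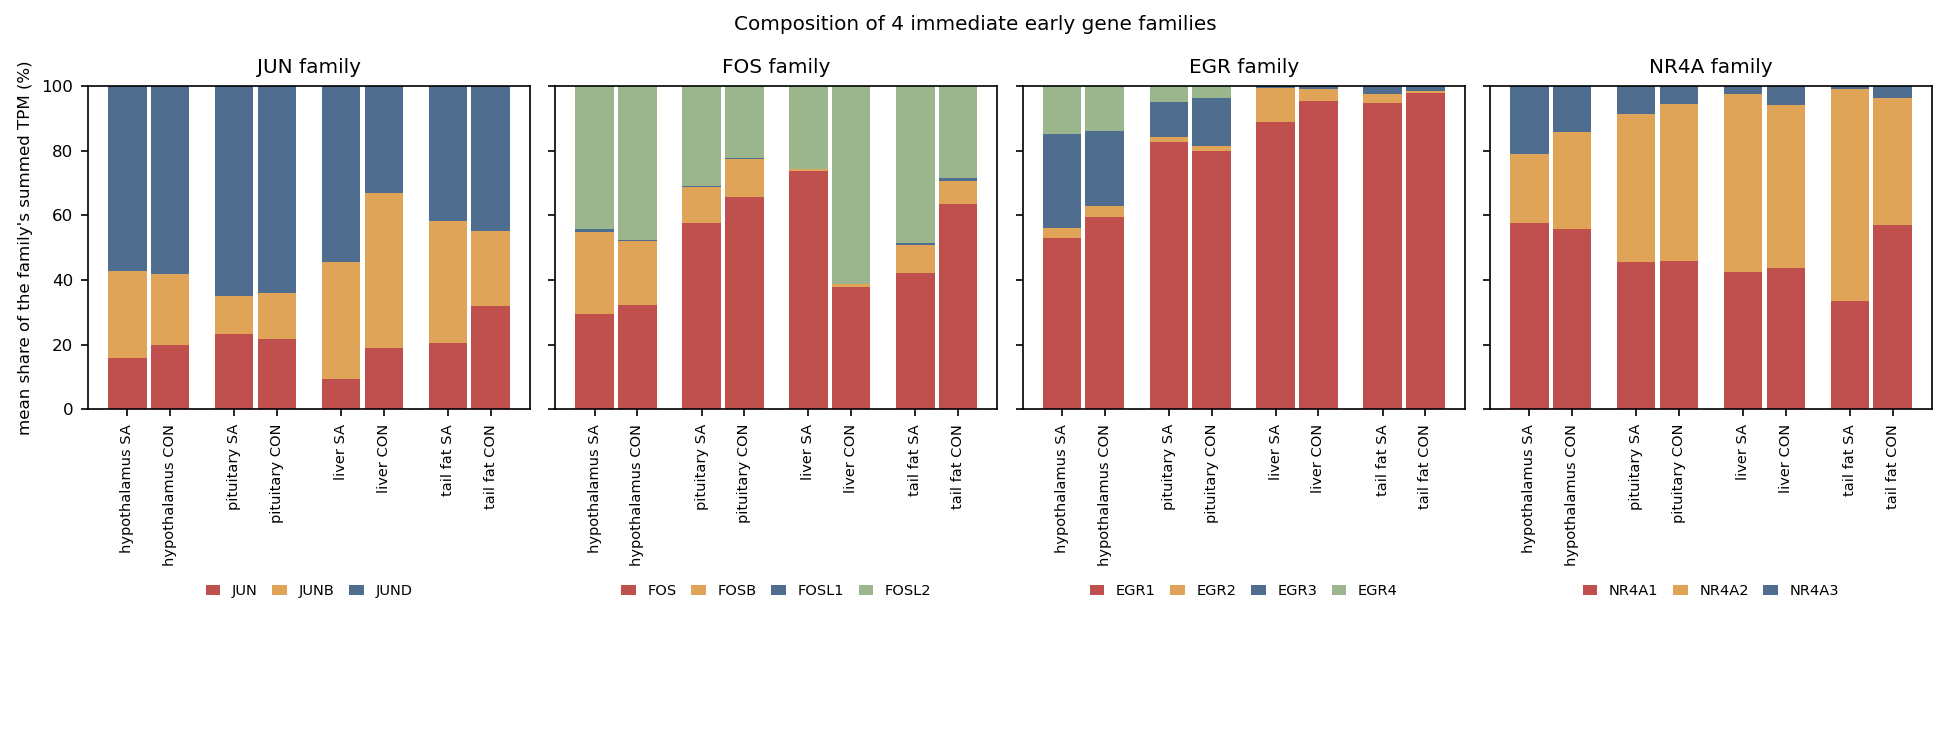
Mean share, in percent, of each paralogue in the summed TPM of its family, by tissue and diet (4 libraries a bar, SA left of CON). FOS fills most of the FOS family in SA livers and FOSL2 in CON livers, and EGR3 and EGR4 take a visible share in tissue labelled hypothalamus.

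In tissue labelled hypothalamus, none of the 9 tested genes differed by diet, where 0 of 14126 genes, 0%, were called. FOSB had the largest change. It stood at 3.31, 4.86, 6.19 and 7.01 TPM in SA libraries 1 to 4, against 3.93, 5.25, 0.60 and 3.89 TPM in CON libraries 1 to 4. The groups overlapped, and CON 3 was low. The change was 0.65 (SE 0.41, limma adjusted p = 0.947).

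EGR3 stood at 24.5, 17.4, 12.8 and 18.2 TPM in the SA libraries, against 17.0, 18.2, 9.22 and 13.5 TPM in the CON libraries, a change of 0.32 (SE 0.24). JUNB stood at 12.0, 15.1, 16.04 and 17.8 TPM in the SA libraries, against 13.5, 16.9, 8.70 and 10.6 TPM in the CON libraries, a change of 0.30 (SE 0.20). Both overlapped between diets. FOS (0.21), ARC (0.18) and NR4A1 (0.04) were closer to 0, and EGR1 (-0.14), JUN (-0.23) and IER2 (-0.35) were on the other side of it. Over all genes the median change was 0.02, and 493 genes had an unadjusted p under 0.05. Oligodendrocyte markers summed to 2043 to 6654 TPM under SA and 4830 to 22922 TPM under CON, with 5 of 5 lower, and microglia and macrophage markers to 126 to 218 TPM (SA) and 95.0 to 153 TPM (CON), with 6 of 6 higher. Choroid plexus markers summed to 178 to 2397 TPM (SA) and 7.19 to 223 TPM (CON), with 2 of 2 tested higher. None passed, and their part in the changes was not tested.

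In tissue labelled pituitary, again none of the 9 tested genes differed by diet, where 0 of 14472 genes, 0%, were called and 218 had an unadjusted p under 0.05. The median change over all genes was -0.27. EGR3 (-0.49, SE 0.50), FOS (-0.44, SE 0.41) and EGR1 (-0.44, SE 0.49) had the largest changes. JUNB (-0.29), FOSB (-0.24) and IER2 (-0.14) followed, and JUN, NR4A1 and ARC lay within 0.02 of 0. Of all genes tested, 15.9% had a positive change. Markers of some other cell types leaned to 1 side, though none passed and the sums of each list below overlapped between diets. The neuronal list summed to 607 to 2840 TPM under SA and 1809 to 2762 TPM under CON, with 6 of 6 tested markers lower. SNAP25 of that list stood at 372 TPM in SA 4 and at 908 to 1404 TPM in the other SA libraries. The smooth muscle and pericyte list summed to 126 to 276 TPM (SA) and 58 to 196 TPM (CON), with 5 of 5 higher, and the endothelial list to 83.1 to 162 TPM (SA) and 44.1 to 102 TPM (CON), with 5 of 5 higher. Their part in the changes was not tested.

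SA 4 was low for most of these genes. EGR1 stood at 15.1, 8.53, 19.5 and 2.79 TPM in SA libraries 1 to 4, against 11.7, 6.57, 19.8 and 19.3 TPM in CON libraries 1 to 4. FOS stood at 20.1, 7.46, 14.8 and 4.06 TPM in the SA libraries, against 13, 8.92, 19.5 and 16.1 TPM in the CON libraries. The diets overlapped for both, and SA 4 was the lowest of the 8 for FOS, FOSB, JUN, JUNB, EGR1, EGR3, NR4A1 and ARC. In SA 4 mitochondrially encoded genes held 68.8% of TPM, while the other SA libraries held 36.7% to 51.1% and CON 41.3% to 45.0%. TTR, a choroid plexus gene, stood at 3081 TPM in SA 4, where CON had 25.4 to 465 TPM. GAPDH stood at 496 TPM in SA 4, where the other SA libraries had 1332 to 2291 TPM and CON 1614 to 2234 TPM. Without SA 4 the change of EGR1 was 0.05, that of FOSB 0.22 and that of FOS -0.07.

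In liver, JUN and EGR1 fell with SA, 2 of the 5 tested genes, where 59.1% of all 11582 genes were called lower. JUN stood at 4.27, 3.85, 3.15 and 2.19 TPM in SA libraries 1 to 4, against 13.6, 5.61, 9.50 and 18.3 TPM in CON libraries 1 to 4. The lowest CON library was above the highest SA library. The share of all genes that part in this way was not determined. The change of JUN was -1.46 (SE 0.32, limma adjusted p = 0.00326). EGR1 stood at 2.83, 1.75, 4.82 and 1.96 TPM in the SA libraries, against 13.5, 4.06, 5.35 and 8.28 TPM in the CON libraries, and SA 3 overlapped CON 2. Its change was -1.14 (SE 0.35, limma adjusted p = 0.0173).

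JUNB stood at 24.8, 25.8, 7.05 and 4.51 TPM in SA livers, against 28.4, 12.1, 34.9 and 45.3 TPM in CON livers. The diets overlapped, SA 3 and SA 4 were low, and the change of -1.10 (SE 0.59) did not pass (limma adjusted p = 0.128). FOS stood at 3.73, 4.66, 4.85 and 2.17 TPM in SA livers, against 7.68, 4.86, 3.53 and 5.09 TPM in CON livers, a change of -0.37 (SE 0.26, limma adjusted p = 0.231). IER2 changed by -0.78 (SE 0.78), and the other 5 genes did not pass the filter. Of these, NR4A1 averaged 0.71 ± 0.20 TPM in SA livers and 0.74 ± 0.23 TPM in CON livers.

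The liver changes went with a shift of the whole library. The median change over all genes was -0.83, and relative to it JUN stood at -0.63, EGR1 at -0.31, JUNB at -0.26, IER2 at 0.05 and FOS at 0.46. With quantile normalization JUN changed by -0.63 (limma adjusted p = 0.170) and EGR1 by -0.37 (limma adjusted p = 0.452), so neither call was kept. Without mitochondrial and ribosomal RNA genes JUN changed by -0.56 (limma adjusted p = 0.325) and EGR1 by -0.28 (limma adjusted p = 0.625). FOS reversed under both, at 0.42 and 0.59, without passing. The EGR1 call was also lost with array weights (limma adjusted p = 0.0586) and in the joint fit of all libraries (limma adjusted p = 0.0743), while JUN kept its call in both.

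The 6 hepatocyte markers summed to 6092 to 22075 TPM in SA livers and 84984 to 95496 TPM in CON livers, all 6 were above 0 in both, and the 6 microglia and macrophage markers summed to 135 to 377 TPM (SA) and 418 to 696 TPM (CON). The 5 endothelial markers summed to 7.43 to 14.1 TPM (SA) and 60.9 to 79.7 TPM (CON). CCDC152, the neighbour of the selenoprotein gene SELENOP, stood at 168 to 842 TPM in the 4 SA livers and was listed at 0 in the 4 CON livers. Diet and this library difference cannot be told apart in liver. A ratio of 2 genes within a library does not depend on its scaling, but it keeps any other part of that library difference. The ratio of FOS to JUN was 0.874 to 1.54 in SA livers and 0.278 to 0.866 in CON livers, which did not overlap. The ratio of FOS to EGR1 was 1.01 to 2.66 in SA livers and 0.57 to 1.20 in CON livers, which overlapped. These ratios too were singled out once known and carry no test, and the share of other ratios that part the diets in liver was not determined.

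**Figure D3:**
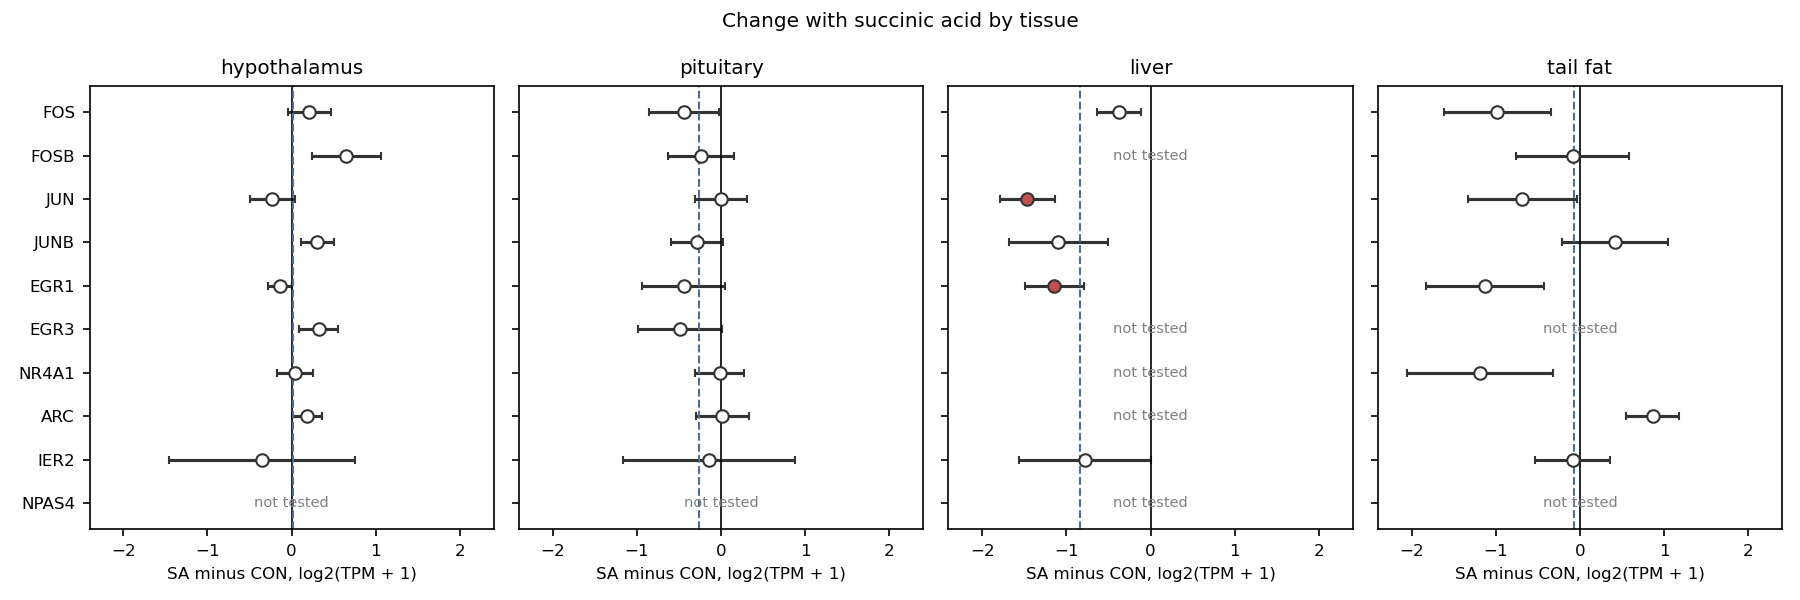
Change with succinic acid, as a log2(TPM + 1) difference of SA minus CON, with its standard error, for each gene in each tissue (4 libraries a group). Filled points passed the threshold, JUN and EGR1 in liver, and the dashed line is the median of all genes tested, which lies at -0.83 in liver.

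In tail fat, none of the 8 tested genes passed, where 78 of 11185 genes, 0.697%, were called. ARC came closest. It stood at 1.66, 2.57, 2.43 and 1.14 TPM in SA libraries 1 to 4, against 0.62, 1.15, 0.44 and 0.27 TPM in CON libraries 1 to 4, so the diets overlapped only by SA 4 and CON 2. The change was 0.86 (SE 0.32, limma adjusted p = 0.246). It passed with quantile normalization (1.13, limma adjusted p = 0.0259), array weights (1.18, limma adjusted p = 0.000338) and the joint fit (limma adjusted p = 0.0175). Of all genes, 415, 2839 and 2014 were called under these settings, in that order, beside the 78. ARC reached 1 TPM in all 4 SA libraries but in CON 2 alone of the CON libraries. So ARC passed the filter only through the group where it was high, and its calls are not independent of that. Neuronal markers in tail fat summed to 0.44 to 0.88 TPM under SA and 0.29 to 1.35 TPM under CON, with none of the 7 reaching 1 TPM. The list of striatal neurons, which holds PPP1R1B, summed to 148 to 582 TPM under SA and 114 to 462 TPM under CON. The part of either in the ARC values was not tested.

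For FOS, NR4A1 and EGR1, SA 1 was the highest of its diet and CON 1 and CON 2 the highest of theirs. FOS stood at 67.7, 12.96, 24.4 and 35.6 TPM in SA libraries 1 to 4, against 99.1, 155, 24.1 and 33.4 TPM in CON libraries 1 to 4. NR4A1 stood at 18.3, 1.70, 2.27 and 3.5 TPM in the SA libraries, against 26.8, 37.4, 0.92 and 9 TPM in the CON libraries. EGR1 stood at 28.0, 4.78, 5.56 and 7.21 TPM in the SA libraries, against 30.0, 74.5, 7.09 and 9.79 TPM in the CON libraries. The diets overlapped for each. The changes were -0.98 (FOS, SE 0.63), -1.19 (NR4A1, SE 0.86) and -1.12 (EGR1, SE 0.70), with limma adjusted p of 0.499, 0.556 and 0.487. With array weights, which weigh libraries unequally, all 3 passed, at -1.36 (FOS, limma adjusted p = 0.0174), -2.25 (NR4A1, limma adjusted p = 0.0158) and -1.64 (EGR1, limma adjusted p = 0.00523). With these weights 2839 of all 11185 genes were called, beside 78 in the main fit.

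JUN stood at 49.5, 15.6, 16.4 and 15.9 TPM in SA tail fat, against 58.8, 110, 12.2 and 17.8 TPM in CON tail fat, with the same 3 libraries on top and a change of -0.68 (SE 0.65) that passed only with array weights (-1.09, limma adjusted p = 0.0315). FOSB stood at 29.0, 2.77, 2.92 and 4.60 TPM in the SA libraries, against 7.53, 14.4, 1.87 and 7.36 TPM in the CON libraries, a change of -0.09 (SE 0.67). JUNB followed another order, at 85.1, 13.2, 27.6 and 49.5 TPM in the SA libraries, against 45.6, 47.0, 8.92 and 24.1 TPM in the CON libraries, a change of 0.42 (SE 0.63). All 3 overlapped between diets. IER2 changed by -0.09 (SE 0.44), with SA 1 the lowest of all 8 at 405 TPM, and EGR3 did not pass the filter.

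In these 8 libraries the 3 highest values of FOS, FOSB, JUN, EGR1, EGR3 and NR4A1 were all in SA 1, CON 1 and CON 2. SA 1 and CON 2 also stood apart in CCDC152, at 0.07 TPM in SA 1 and 0.12 TPM in CON 2, while the remaining SA libraries had 148 to 186 TPM and the remaining CON libraries 57.8 to 162 TPM. Mitochondrially encoded genes held 25.7% of TPM in SA 1 and 36.5% to 50.7% in the remaining SA libraries, and 22.6% in CON 2 and 47.1% to 70.8% in the remaining CON libraries. CON 1, at 162 TPM of CCDC152 and 47.1%, was on the other side of both splits. ADIPOQ, an adipocyte marker, was highest in the same 3 libraries, at 5419 TPM in SA 1, 3295 TPM in CON 1 and 9604 TPM in CON 2, while the remaining SA libraries had 1390 to 2572 TPM and the remaining CON libraries 1071 to 1327 TPM. The part of these differences in the levels was not tested. Without SA 1 and CON 2, a choice made after seeing the data, the changes of FOS (-0.91), EGR1 (-1.04) and NR4A1 (-1.25) had limma adjusted p of 0.355, 0.251 and 0.638, and ARC no longer passed the filter. SA 1 and CON 2 are 1 library of each diet, too few for a value of their own.

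The microglia and macrophage list in tail fat summed to 8.4 to 82.5 TPM under SA and 19.95 to 50.7 TPM under CON, the endothelial list to 75.5 to 272 TPM under SA and 91.7 to 316 TPM under CON, and the adipocyte list to 10730 to 60107 TPM under SA and 10967 to 74425 TPM under CON. All 6 adipocyte markers reached 1 TPM in both diets. The part of cell composition in the spread of these genes was not tested.

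**Figure D4:**
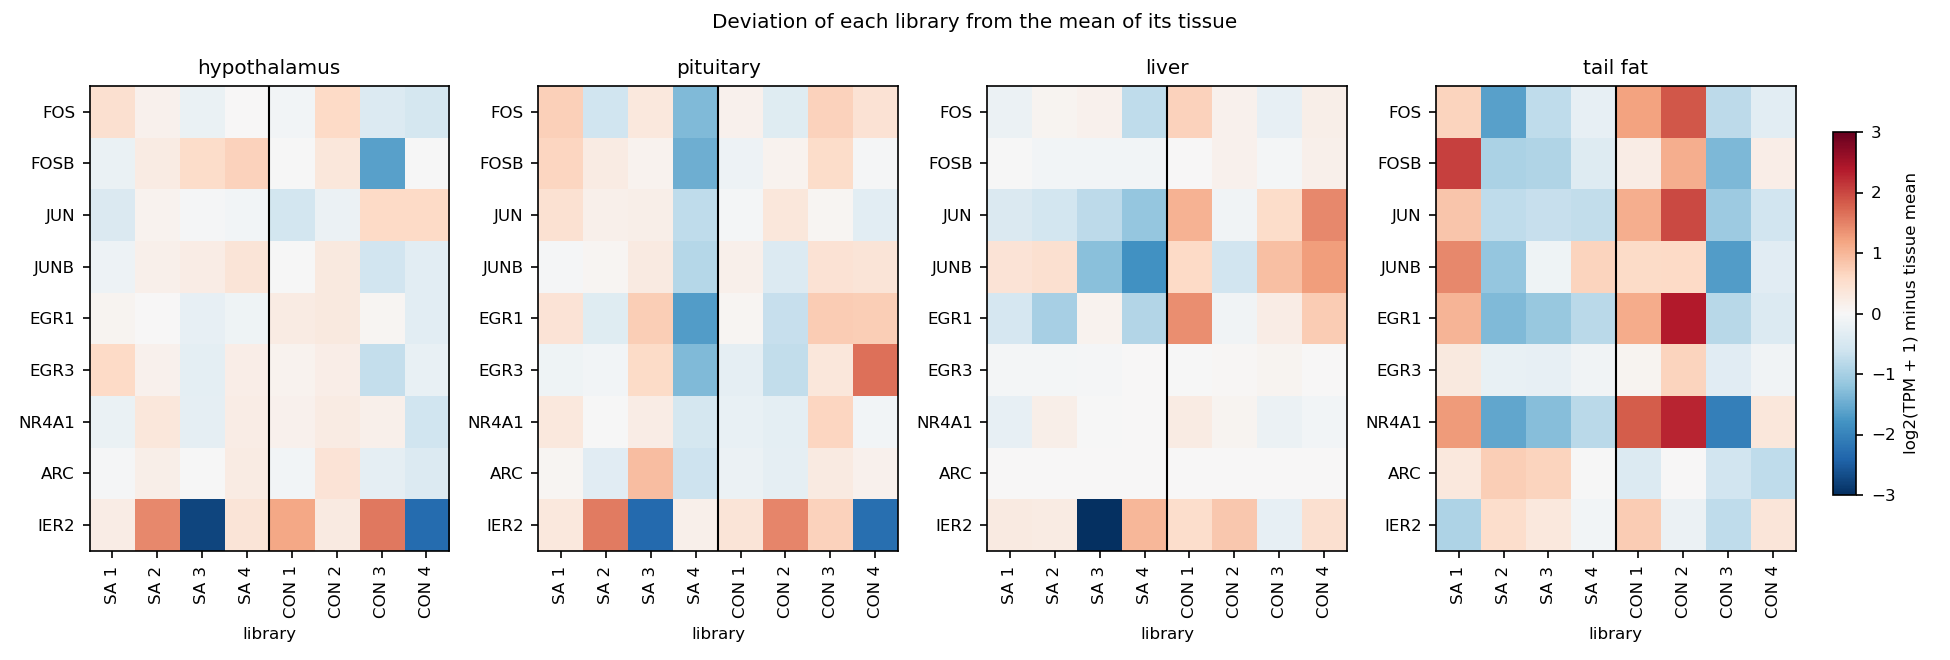
Deviation of each library from the mean of its tissue, in log2(TPM + 1), for the 9 genes that reached 1 TPM, with SA libraries left of CON libraries. Tail fat SA 1, CON 1 and CON 2 are high for FOS, JUN, EGR1 and NR4A1 together, pituitary SA 4 is low for 8 of the 9 genes, and IER2 follows neither.

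Whether the effect of SA differed between tissues was tested with an interaction of diet and tissue over all 32 libraries (3 degrees of freedom). The fit had no term for sheep, though 4 sheep of each diet gave these libraries. None of the 9 tested genes passed, where 27% of 16360 genes were called. ARC had the smallest p, with F = 2.84 (limma adjusted p = 0.133), and JUN followed with F = 1.95 (limma adjusted p = 0.267). The fall of JUN and EGR1 in liver was not shown to differ from their changes in the other tissues.

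The spread between libraries of 1 diet was above that of the median gene for most of these genes. In tail fat the within-diet SD of log2(TPM + 1) ran from 0.33 (ARC) to 1.65 (NR4A1), and 6 of the 8 tested genes were above the 90th percentile of all genes. In pituitary 3 of 9 were above it, in hypothalamus 2 of 9 and in liver 2 of 5. EGR1 in hypothalamus, at an SD of 0.22, lay at percentile 54.5, and NR4A1 in tail fat lay at percentile 98.8. Below the median gene were NR4A1 (percentile 41.3) and JUN (45.8) in pituitary and ARC (6.2) and IER2 (48.5) in tail fat. These percentiles describe the libraries and carry no test.

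IER2 stood apart in where its spread lay. In SA libraries 1 to 4 it stood at 84.0, 197, 9.82 and 93.7 TPM in hypothalamus, at 101, 240.5, 15.3 and 89.5 TPM in pituitary, at 237, 232, 22.5 and 391 TPM in liver, and at 405, 1097, 948 and 717 TPM in tail fat. SA 3 was thus the lowest of its group in 3 of the tissues and the second highest in tail fat. In CON libraries 1 to 4 it stood at 162, 86.1, 216 and 13.8 TPM in hypothalamus, at 105, 225, 131 and 15.9 TPM in pituitary, at 284, 343, 164 and 272 TPM in liver, and at 1289, 675, 448 and 986 TPM in tail fat. CON 4 was the lowest in both brain tissues, though not in liver or tail fat. The SD of IER2 lay at percentile 99.7 in hypothalamus, 99.6 in pituitary and 98.4 in liver, but 48.5 in tail fat.

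**Figure D5:**
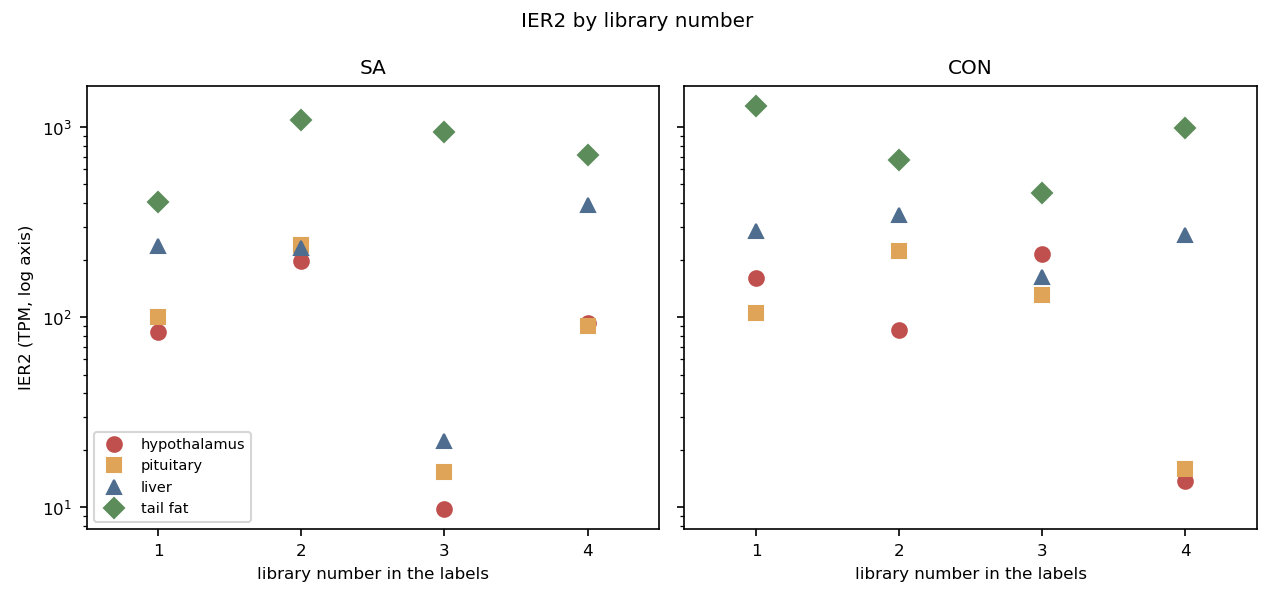
IER2 level in TPM, on a log axis, against the library number that the labels give, for SA and CON, with 1 symbol a tissue. SA 3 is low in hypothalamus, pituitary and liver and CON 4 in hypothalamus and pituitary, at 9.82 to 22.5 TPM, while no tail fat library is under 405 TPM.

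How closely the genes followed each other was described by the correlation of deviations from group means, over libraries that share their sheep, library and depth, and without a p. Over all 32 libraries, 5 genes were tested in all 4 tissues, and each was set against the mean of the other 4. Pearson's r was 0.68 for FOS, 0.66 for JUN, 0.59 for JUNB and 0.58 for EGR1, but -0.13 for IER2. Over the 16 brain libraries, r against the mean of the other 8 was 0.86 for NR4A1, 0.76 for FOS and 0.72 for EGR1, and 0.10 for JUN and -0.20 for IER2.

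The genes most like the mean of those 5 over the 32 libraries, of 9228 tested in all 4 tissues, were RPP30, ANKH, ZFP36, MRPL28, BTBD6, BTG2, KLHL25 and AEN, with r between 0.80 and 0.82. Rank correlations of these genes ran from 0.63 (BTG2) to 0.82 (ANKH). These r are the highest of all 9228 genes, and the mean includes IER2. The members were set against a mean without themselves, so the 2 sets of r cannot be compared. ZFP36 encodes a protein that hastens the decay of AU-rich messenger RNAs, and BTG2 an antiproliferative protein, and both belong to the list of other immediate early effectors. ZFP36 averaged 60.3 ± 34.9 TPM (SA) and 66.3 ± 40.7 TPM (CON) in tail fat and 8.09 ± 2.87 TPM (SA) and 26.3 ± 8.92 TPM (CON) in liver. In the 16 brain libraries the named genes most like the mean of the 9 were HIRA, MAPK13, HACD2, CAPN10, MLC1 and MYO16, with r between 0.89 and 0.91, and 2 more IDs carry no symbol. Here too the r are the highest of 13738 genes, against a mean that includes IER2.

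The wider immediate early response was read from 5 lists. In liver, 13 of 17 tested other immediate early transcription factors fell with SA and none rose, with a median change of -1.03 beside -0.83 over all genes. MYC, a growth regulator, averaged 2.66 ± 1.56 TPM in SA livers and 31.1 ± 13.7 TPM in CON livers, a change of -3.13 (SE 0.36, limma adjusted p = 0.000103). BHLHE40 (-2.44), KLF6 (-2.44) and KLF10 (-1.57) fell as well, and BHLHE40, a clock-linked repressor, averaged 17.1 ± 4.04 TPM in SA livers and 99.4 ± 28.3 TPM in CON livers. Of the 31 tested effectors and feedback inhibitors, 20 fell and 1 rose, with a median of -1.07, where 5.21% of all genes were called higher. SPRY4, an inhibitor of receptor tyrosine kinase signals, changed by -1.51, GADD45A, of the DNA damage response, by -2.20, SIK1, a kinase that restrains CREB coactivators, by -1.38, and ZFP36L1 by -1.31.

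Upstream, 25 of 31 tested signal transducers fell in liver and none rose, with a median of -0.76. They included PRKACA (-1.96), the catalytic subunit of protein kinase A, MRTFA (-1.18), a coactivator of SRF, and CRTC3 (-1.18), a coactivator of CREB. Of 12 tested heat shock and stress genes, 9 fell and 1 rose, with a median of -1.38. HSPA5, the chaperone of the endoplasmic reticulum, averaged 29.9 ± 4.54 TPM in SA livers and 404 ± 209 TPM in CON livers, a change of -3.60, and HSP90AA1 (-2.53), HSPA8 (-2.35) and DNAJB1 (-1.27) fell too. Of 6 tested late-response genes of neurons, RHEB (-1.34) and HOMER1 (-1.02) fell and INHBA (2.08), an activin subunit, rose. All of these liver counts stand beside the 59.1% of all genes called lower. MRTFA averaged 0.37 ± 0.06 TPM in SA livers and 2.10 ± 0.26 TPM in CON livers. CRTC3 averaged 1.01 ± 0.25 TPM (SA) and 3.53 ± 0.16 TPM (CON). SIK1 averaged 0.69 ± 0.18 TPM (SA) and 3.57 ± 1.68 TPM (CON). HOMER1 averaged 1.48 ± 0.99 TPM (SA) and 4.07 ± 2.21 TPM (CON). MRTFA, CRTC3, SIK1 and HOMER1 passed the filter only through the CON livers, where they were high, so their calls are not independent of that. The counts include such genes.

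In tissue labelled hypothalamus no gene of these lists passed. The median change was 0.06 in 21 other transcription factors, -0.02 in 31 effectors, 0.17 in 17 late-response genes, 0.14 in 34 transducers and -0.04 in 12 stress genes, beside 0.02 over all genes. The genes of smallest p were ATF3 (-0.51), FOSL2 (0.28), ZFP36L1 (0.39), GADD45G (0.34), CREM (0.45), NPTX1 (0.38), SRF (0.28), MAPK14 (0.22), HSPH1 (0.14) and DDIT3 (-0.08), with limma adjusted p of 0.947 or above. CREM, a cAMP-responsive factor, averaged 11.2 ± 2.54 TPM in SA libraries and 7.84 ± 1.34 TPM in CON libraries.

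In tissue labelled pituitary no gene of the lists passed either, and the medians ran from -0.33 (19 late-response genes) to -0.09 (19 transcription factors), beside -0.27 over all genes. The genes of smallest p were KLF2 (0.41), TSC22D1 (-0.63), DUSP4 (-0.63), RGS2 (-0.64), PDYN (0.99), GPR3 (-0.44), MEF2C (0.63), ELK3 (0.34), HSPA8 (-0.53) and HMOX1 (0.36), each at limma adjusted p = 0.747.

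In tail fat no gene of the lists passed. The median was -0.57 in 30 effectors and feedback inhibitors, of which 25 had a negative change, beside -0.06 over all genes. The other medians were -0.03 in 20 transcription factors, -0.36 in 6 late-response genes, -0.22 in 30 transducers and -0.21 in 12 stress genes. NFKBIZ, an inducible regulator of NF-kappa-B, came closest at -1.78 (SE 0.46, limma adjusted p = 0.0860), with 2.58 ± 0.83 TPM under SA and 11.9 ± 5.39 TPM under CON. PLK2 (-1.42), TAC1 (-2.31), PENK (1.90), BHLHE40 (1.52), IER5L (0.84), ELK1 (1.05), CRTC2 (-0.89), DDIT4 (-1.34) and HSPB1 (0.88) were the others of smallest p, with limma adjusted p between 0.149 and 0.435.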

How the data were processed

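The authors deposited TPM values of 30722 genes in 32 libraries. The submitters' processing notes name fastp, HISAT2 and RSEM. Neither tool versions nor a build, gene annotation or strandedness of counting is given in the sources used here. The 8 deposited columns of group means were not used. Depth is unknown.

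Groups came from the labels. Diets were compared within each tissue (4 SA against 4 CON), tissues within CON, and diet by tissue over all libraries, with limma 3.58.1 in R 4.3.3 (eBayes with trend and robust) on log2(TPM + 1). A gene entered a fit with at least 1 TPM in at least 4 of its libraries. The fits were tested on simulated data. The labels do not tie library numbers to sheep, so p-values measure the spread between these libraries. The 10 genes were taken by symbol. List genes named are those of smallest p, up to 4 past the threshold of 0.05 per list and tissue, otherwise 2, and the most similar genes are the 8 of highest Pearson's r. Genes and lists were chosen with earlier results of these data known. Alternatives were the pseudocount, filter, scaling, variance model, array weights, joint fit, replicate block and leaving out each library. One gene that this rule would name is not reported here. No sequence was used.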

Additional observations from a re-analysis of the deposited data

Results flagged for a closer look

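In 64 groups of 4 libraries in which a gene reached 1 TPM, the gap of the extreme library to its nearest neighbour, as a share of the group's range, was set against Dixon's 95% critical value for 4 values. Chance passes it in about 1 of 20 groups if values are independent and normally distributed, which TPM need not be. Of the groups, 5 passed, 4 of them through the same library, tail fat SA 1, so they are not separate flags.

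In tail fat, SA 1 was far above the other SA libraries in 4 genes. FOSB stood at 28.97 TPM, against 2.77 to 4.60 TPM in the other 3. JUN stood at 49.51 TPM, against 15.6 to 16.4 TPM. EGR1 stood at 28.0 TPM, against 4.78 to 7.21 TPM. NR4A1 stood at 18.29 TPM, against 1.70 to 3.5 TPM. The same library had 25.7% of mitochondrially encoded TPM, where the remaining SA libraries had 36.5% to 50.7%, and 5419 TPM of the adipocyte gene ADIPOQ, where they had 1390 to 2572 TPM. The part of either in these values was not tested.

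In tissue labelled hypothalamus, NR4A1 stood at 5.19 TPM in CON 4, against 9.16 to 9.97 TPM in the other CON libraries. IER2 was also lowest there, at 13.8 TPM.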

How the results depend on the processing

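Of the counts of members called, 61 of 69 for diet, 95 of 102 for tissue and 36 of 40 for the interaction stayed within 1.5 times their value under the alternatives. Counts of 0 that stayed 0 are among these. They include every diet count of hypothalamus and pituitary, where the main fit called 0 of all genes, so these could hardly move. Of single changes, 391 of 423 (diet) and 474 of 522 (tissue) kept direction and side of the threshold. These leave out the smallest diet changes, which reverse most easily, and the tissue differences that had not passed. The cause was not tested for those that did not. The liver count of 2 became 1 with a filter at 5 TPM (EGR1 no longer tested), array weights or the joint fit, and 0 with quantile normalization or without mitochondrial and ribosomal RNA. The tail fat count of 0 became 1 with quantile normalization or the joint fit (ARC) and 6 with array weights, FOS, JUN, EGR1, NR4A1 and ARC among them. Of all 11185 genes, 415, 2014 and 2839 were called under these settings, in that order, beside 78 in the main fit. The count of hypothalamus against pituitary, 2, became 1 with the 5 TPM filter and 4 with quantile normalization, without mitochondrial and ribosomal RNA, or with array weights. Pituitary against liver, 5, became 2 with quantile normalization. The interaction count of 0 became 1 with quantile normalization and 3 with array weights.

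Of the changes counted, those that reversed were, with array weights, IER2 in hypothalamus (0.063), FOS and FOSB in pituitary (0.064 and 0.18) and JUNB in tail fat (-0.21). With quantile normalization these were IER2 in pituitary (0.15) and FOS and IER2 in liver (0.42 and 0.17). Without mitochondrial and ribosomal RNA they were IER2 in pituitary (0.093) and FOS and IER2 in liver (0.59 and 0.32). JUNB in hypothalamus against liver was 0.29 in the SA libraries.

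Leaving out each library gave ranges of -1.18 to 0.51 (IER2, hypothalamus), -0.49 to 0.22 (FOSB, pituitary), -0.77 to 0.045 (EGR1, pituitary), -0.92 to 0.61 (IER2, pituitary), -1.24 to 0.11 (IER2, liver) and -0.071 to 0.87 (JUNB, tail fat). The count for pituitary against tail fat ranged from 4 to 7, and that of the interaction from 0 to 1, with 1 without pituitary SA 3 or tail fat CON 3.

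With a replicate block of the library numbers, the members called by diet stayed 2 in liver and 0 in the other tissues, and JUNB in hypothalamus against tail fat lost its call (limma adjusted p = 0.0603). Deviations of same-numbered libraries correlated at -0.34 to 0.29 between diets, which are different sheep, and in CON at -0.32 to 0.16 between tissues. In SA sheep all 4 same-numbered libraries of hypothalamus and pituitary matched best, with r from 0.13 to 0.37. So did all 4 of pituitary and liver (r from 0.058 to 0.19) and 3 of 4 of hypothalamus and liver (r from 0.048 to 0.12). With tail fat, 1 of 4 in hypothalamus, 1 of 4 in pituitary and 2 of 4 in liver did. These matches are a hint from the data only. The labels do not tie the numbers to sheep, so the numbers are not used as pairs. Over all genes, the 78 calls in tail fat became 413 with the block, between 0 (no filter) and 2839 (array weights) under other settings, and 3 to 261 without 1 library. The 7445 calls in liver became 3656 without mitochondrial and ribosomal RNA, 4326 with quantile normalization and 4618 with the 5 TPM filter. In hypothalamus 0 became 3 in the joint fit, and in pituitary 0 became 4 in the joint fit and 165 with array weights. With array weights, the 4414 interaction calls became 10046 and the 2087 of hypothalamus against pituitary 5323 (1317 in the SA libraries). Depth is unknown, so low values such as those of NPAS4 cannot be given a limit.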

Other observations

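Among late-response genes with no diet call in brain, BDNF, a neurotrophin, averaged 0.07 ± 0.07 TPM (SA) and 0.01 ± 0.02 TPM (CON) in tissue labelled hypothalamus, and 6.17 ± 4.00 TPM (SA) and 6.75 ± 1.14 TPM (CON) in tissue labelled pituitary (SD, n = 4 each). In tissue labelled hypothalamus BDNF was under the filter and was not tested for diet. PENK, the enkephalin precursor, ran the other way, at 1090 ± 286 TPM (SA) and 1035 ± 339 TPM (CON) in hypothalamus and 56.3 ± 58.6 TPM (SA) and 65.6 ± 46.3 TPM (CON) in pituitary. DUSP1, a phosphatase that ends MAP kinase signals, averaged 64.0 ± 10.5 TPM (SA) and 182 ± 77.2 TPM (CON) in tail fat and 11.6 ± 1.88 TPM (SA) and 10.5 ± 1.34 TPM (CON) in hypothalamus. Its diet difference passed in neither tissue. These examples were picked with their values known.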
